A study of Homo sapiens with 18 samples.

Results

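PacBio and Oxford Nanopore (ONT) gene counts were compared within H1975, an established human lung adenocarcinoma cell line. The comparison took every library labelled H1975 PacBio and every library labelled H1975 ONT, 3 of each, which is 6 of the 18 libraries of the series. The other 12 are the 3 Illumina libraries of H1975 and all libraries of HCC827, another lung adenocarcinoma line. Per the labels, 3 independent RNA samples were prepared from each line and every RNA sample went onto each platform, with synthetic spike-in RNAs added. Cells of all groups were grown independently in serum-containing medium to near confluency. No treatment separated the groups and no genotype beyond the line's name is given in the labels. ONT cDNA libraries were made from 1.5 ng of mRNA with 14 PCR cycles, pooled and run over 5 PromethION flow cells. PacBio Iso-Seq libraries were made from total RNA, aimed at molecules near 2 kb, amplified with 12 PCR cycles and run on a Sequel II. RNA input, size selection, amplification and sequencer changed together, so their parts in any difference cannot be told apart. A single line was used for each group, and p-values measure the spread between these RNA samples and libraries alone.

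A full-length cDNA library reads a messenger RNA from its poly(A) tail towards its cap, and both PCR and the loading of a sequencer can favour some molecule lengths. Iso-Seq clusters similar reads into a consensus, whereas ONT reads are aligned one by one. Highly abundant mRNAs of ribosomal proteins, S100 proteins, thymosins and metallothioneins are short, while those of filamins, laminins, fibronectin and dynein heavy chains are long, so these classes show how length and platform meet.

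The deposited values are whole counts per gene. Gene totals were 41253, 53074 and 50324 counts in PacBio replicates 1, 2 and 3, and 92417847, 81467393 and 82342587 in the ONT libraries. One PacBio count was therefore worth 18.8 to 24.2 counts per 1000000 of the library's gene total (CPM). PacBio detected 10109 to 11361 genes and ONT 37935 to 38473. All 10 H1975 and epithelial markers were counted on both platforms. Their CPM summed to 2265 to 3151 in PacBio and 3461 to 3877 in ONT. Among markers of other cell types, 8 of 11 fibroblast, 11 of 13 hematopoietic and 6 of 8 endothelial genes had 0 PacBio counts. Their summed CPM was 565 to 970, 113 to 121 and 18.8 to 24.2 in PacBio, against 40.1 to 47.8, 40.1 to 46.1 and 5.18 to 5.96 in ONT. PTPRC, CD3E, HBB, PECAM1, VWF, DCN and LUM lay at or below 2.13 CPM in each ONT library, and PECAM1 had the single PacBio count among them. Other members of these lists were counted more. CD68 had 4, 4 and 2 PacBio counts and 36.7, 38.02 and 32.2 CPM in ONT. LCP1 had 1, 2 and 4 PacBio counts, and KDR had 0, 1 and 1. CD14 had 0 PacBio counts but at least 4.09 CPM in each ONT library. COL1A1 had 703, 377 and 457 CPM in PacBio. The part of other cell types in these values was not tested.

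The counts of PacBio replicates 2 and 3 agree within sampling noise, with a mean chi-square per gene of 0.550, against 1.34 and 1.51 for the other PacBio pairs. They were counted as 1 sample, which leaves 2 PacBio samples against 3 ONT samples. A pair of scales is given throughout, because they differ by a constant. The trimmed mean of M values (TMM) centres the ratio on genes of middling behaviour, and library totals divide by all gene counts. Log2 ratios of PacBio over ONT were higher by 2.73 on library totals, a factor of 6.65. With the ONT libraries thinned to PacBio depth, TMM itself moved up by 2.55. A gene is written as higher in PacBio only where edgeR called it on both scales, at an adjusted p below 0.05, and likewise for lower. Elsewhere each ratio or call is given with its scale.

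The 5′ to 3′ coding sequences of 2 short and abundant mRNAs are shown first, because with their copies they took 3.28%, 3.00% and 3.14% of ONT gene counts and 0.0145%, 0.00565% and 0.00596% of PacBio gene counts. RPL41 encodes a very small protein of the large ribosomal subunit, and TMSB4X encodes thymosin beta-4, which binds monomeric actin. Processed pseudogenes are intronless copies of an mRNA inserted elsewhere in the genome. Among annotated processed pseudogenes outside chromosome Y, 8 matched at least 90% of the RPL41 coding sequence without gaps, and 5 of these had no base different over the bases compared. For TMSB4X there were 4 copies, none identical. In the lines that follow, from GENCODE 44 on GRCh38, capitals mark bases that differ from the coding sequence of the gene.
RPL41, coding sequence of the gene at chr12:56116590-56117967, plus strand: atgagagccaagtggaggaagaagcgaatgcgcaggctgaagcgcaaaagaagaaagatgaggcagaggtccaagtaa
ENSG00000279483, inside DGKI at chr7:137513859-137513933, plus strand: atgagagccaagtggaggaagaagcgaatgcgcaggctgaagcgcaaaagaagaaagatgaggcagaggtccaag
RPL41P5, chr12:93083598-93083675, minus strand: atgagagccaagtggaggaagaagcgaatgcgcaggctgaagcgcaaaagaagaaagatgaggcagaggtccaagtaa
ENSG00000230199, chr1:242975005-242975084, plus strand: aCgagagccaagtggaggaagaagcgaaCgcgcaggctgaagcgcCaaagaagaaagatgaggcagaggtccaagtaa
ENSG00000273716, chr4:118460224-118460301, minus strand: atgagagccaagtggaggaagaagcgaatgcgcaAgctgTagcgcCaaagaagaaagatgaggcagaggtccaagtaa
TMSB4X, coding sequence of the gene at chrX:12975110-12977227, plus strand: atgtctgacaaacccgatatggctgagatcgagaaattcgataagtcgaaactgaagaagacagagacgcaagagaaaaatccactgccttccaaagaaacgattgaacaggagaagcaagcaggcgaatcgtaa
TMSB4XP8, inside CCSER1 at chr4:90838903-90839037, minus strand: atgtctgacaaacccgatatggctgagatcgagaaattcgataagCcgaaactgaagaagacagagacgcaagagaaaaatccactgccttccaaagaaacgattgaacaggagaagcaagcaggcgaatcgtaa

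In ONT the gene RPL41 stood at 4701, 4252 and 4672 CPM in replicates 1, 2 and 3. Its 5 identical copies were counted as well. Mean ONT values were 4438 CPM for ENSG00000279483, 4267 for ENSG00000264281 inside IL6ST, 3608 for RPL41P5, 3138 for RPL41P1 and 1051 for RPL41P2 inside HERC2. The copies with 3 different bases, ENSG00000230199 and ENSG00000273716, had 30.6 and 28.4 CPM. ENSG00000230355, with 2 different bases, had 0.0507 CPM. In sum the 8 copies took 16903, 15776 and 17002 CPM in ONT, and 2, 1 and 1 counts in PacBio, each of them on ENSG00000264281. RPL41 itself had 0 counts in each PacBio library. Taking the limit that a count of 0 allows, 3 counts over the PacBio group or 20.7 CPM, RPL41 was at least 219-fold lower in PacBio. TMSB4X had 4, 2 and 2 PacBio counts against 3797, 3400 and 3323 CPM in ONT. The 4 TMSB4X copies had 0 PacBio counts, and their ONT means were 3373 CPM for TMSB4XP8, 1476 for TMSB4XP4, 1169 for TMSB4XP1 and 796 for TMSB4XP6. No source used here states how reads that match several places were counted, so reads of the gene and of its copies cannot be told apart.

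**Figure D1:**
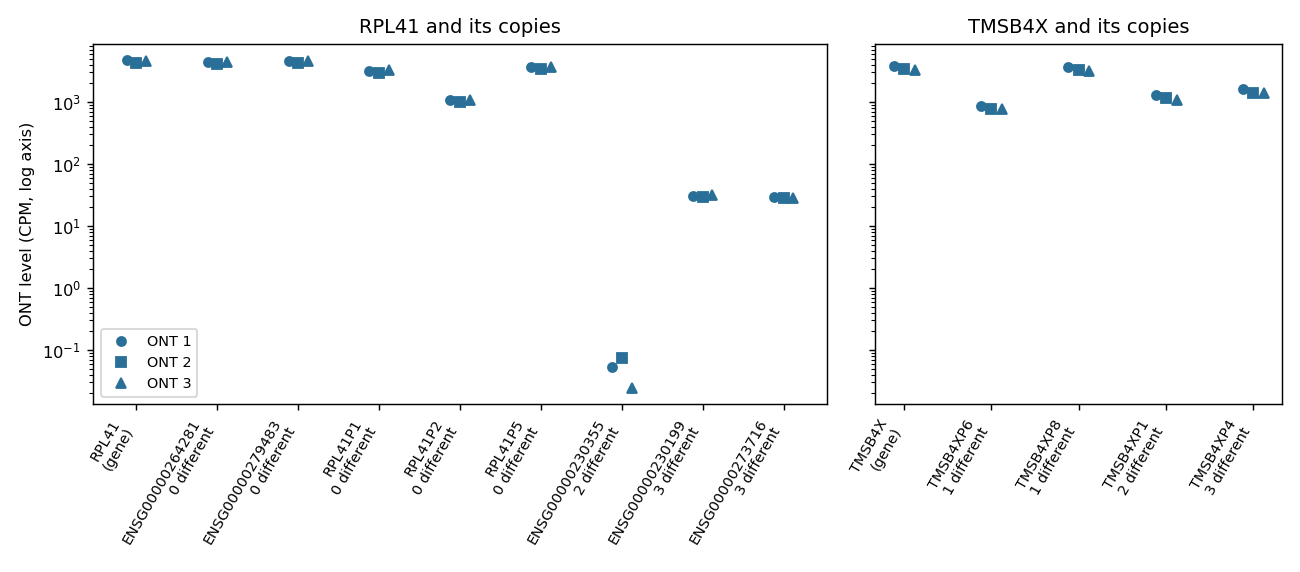
ONT level in CPM on a log axis for RPL41 and its 8 copies (left) and for TMSB4X and its 4 copies (right), 1 point per ONT replicate, with the number of bases that differ from the gene's coding sequence. The 5 copies of RPL41 with 0 different bases lie between about the level of the gene and 990 CPM, and the copies with 2 or 3 different bases lie at 31.9 CPM or below.

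Processed pseudogenes as a class held 23.3%, 23.04% and 22.99% of ONT gene counts, and 0.216%, 0.339% and 0.326% of PacBio gene counts. The groups did not overlap, and the mean ONT share was 84.3-fold the PacBio mean. Several host genes that contain such a copy on either strand were counted in ONT and hardly in PacBio. The 5 named here come from the rules of the largest ratios and of the list of very long mRNAs, so they do not stand for all hosts. DGKI, a diacylglycerol kinase of 13.5 kb that contains ENSG00000279483, had 5861, 5358 and 5743 CPM in ONT and 0 PacBio counts, at least 273-fold lower. CCSER1, which contains TMSB4XP8, had a mean of 3508 CPM in ONT and 0 counts in PacBio. HERC2, a giant ubiquitin ligase of 15.4 kb that contains RPL41P2, had 1095, 1001 and 1086 CPM in ONT and 1, 0 and 1 PacBio counts. NBEAL1, with ribosomal protein copies on both strands, had 1733, 1591 and 1571 CPM in ONT and 0 PacBio counts. ATG10, an autophagy enzyme that overlaps RPS23 and PPIAP11, had 1 count in each PacBio library against 3986, 3902 and 3947 CPM in ONT. Protein-coding and lncRNA genes that overlap a processed pseudogene together held 21.2% ± 0.159 (SD, n = 3) of ONT counts and 13.8% ± 0.910 (SD, n = 2) of PacBio counts. Of the 358 tested hosts with a mean of at least 100 CPM over both platforms, 188 were lower and 74 higher on both scales. Among all 2101 tested genes of that level the counts were 838 and 611. A host scarce in PacBio passes this minimum only through a high ONT level. Of all 3449 tested hosts, 381 were lower and 259 higher on both scales, against 2297 and 2622 of all 26837 tested genes. CANX, a host of HMGB3P22, was among those higher. The levels of hosts in ONT may include counts whose origin, host or copy, was not tested.

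Across all genes, 26837 were tested. By TMM, 2623 genes were called higher in PacBio (9.77%) and 8052 lower (30.0%). On library totals 7530 were called higher (28.1%) and 2297 lower (8.56%). Called on both scales were 2622 genes higher and 2297 lower, while 668 genes were called lower by TMM and higher on library totals. Many tested genes had no PacBio count at all: 13851 had 0 counts in PacBio, and 4090 of them were called lower. The genes described further are mainly those with a mean of at least 100 CPM, with equal weight to each platform. Of these 2101 genes, 611 were higher in PacBio and 838 lower on both scales, and 1242 were called lower by TMM. The 3 libraries of one platform did not overlap those of the other in CPM, and the gene was called in that direction by TMM, for 611 higher and 874 lower genes.

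The genes called higher and lower differed in kind. Among genes of at least 100 CPM, those called higher by TMM had a median canonical transcript of 4.18 kb and a GC content of 52.1%, and 1 of them was a processed pseudogene. Those called lower had a median of 1.38 kb and 49.0% GC, with 221 processed pseudogenes and 849 protein-coding genes. Transcripts under 0.8 kb took 41.3%, 40.5% and 40.9% of ONT counts but 11.4%, 12.1% and 11.7% of PacBio counts. Transcripts of 4 to 6 kb took 7.79%, 7.76% and 7.87% of ONT counts against 21.6%, 21.9% and 22.97% in PacBio. The shares of 1.5 to 2.5 kb were the closest, 14.3% ± 0.267 (SD, n = 3) in ONT and 17.3% ± 2.24 (SD, n = 2) in PacBio. Above 6 kb PacBio replicate 1 stood at 13.02%, below replicates 2 and 3 at 18.1% and 18.8%, and ONT at 7.67% ± 0.153 (SD, n = 3). In each of the 23 shares and measures per library the platforms did not overlap. The exact two-sided permutation test of 2 against 3 samples gave p = 0.1 for each, adjusted p = 0.1, which is the smallest the 10 arrangements allow.

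**Figure D2:**
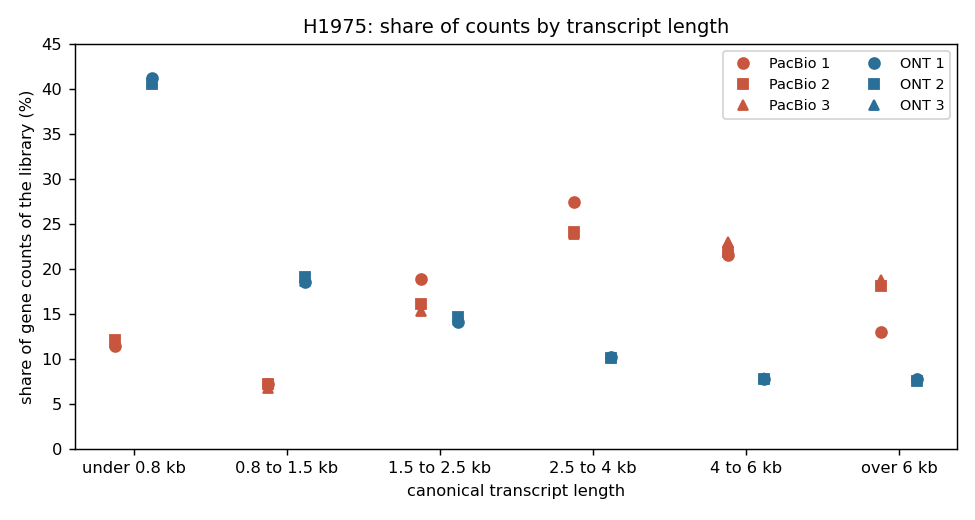
Share of each library's gene counts (percent) by canonical transcript length, 1 point per library, PacBio in red and ONT in blue. ONT is higher below 1.5 kb, where it holds 40.9% and 18.8% on average, and PacBio is higher in every class above 1.5 kb.

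By length class, the median log2 ratio of genes of at least 100 CPM went from -6.99 by TMM (-4.26 on library totals) under 0.8 kb, over 508 genes, to 0.82 (3.55) at 4 to 6 kb, over 366 genes. The classes between stood at -5.78 (-3.05) for 0.8 to 1.5 kb, -2.14 (0.60) for 1.5 to 2.5 kb and -0.15 (2.59) for 2.5 to 4 kb. Above 6 kb the median was 0.67 (3.41) over 234 genes and did not exceed that at 4 to 6 kb. Of the 508 shortest genes 69 were called higher by TMM and 415 lower, and of the 366 genes at 4 to 6 kb 205 were called higher and 104 lower. The step from the shortest class to 4 to 6 kb was 7.81 on the log2 scale. It was also 7.81 on library totals. The same difference taken within each library, with 0.5 counts added, had an SD of 0.142 between PacBio samples (n = 2). That SD is not the spread of the fitted step, which was 7.34, 7.13 and 7.15 without PacBio replicate 1, 2 or 3. The minimum is set on the mean of both platforms, so a gene scarce on one passes only where it is high on the other, and the step was 5.99 with a minimum of 50 CPM and 8.48 with 200 CPM. The classes also hold genes that overlap others, whose counts may be shared.

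The length pattern was therefore also described in 804 protein-coding genes that overlap no other annotated gene and had at least 30 transcripts per 1000000 (TPM) in the Illumina libraries of H1975, a set chosen by neither long-read platform. Medians by TMM were -5.90 under 0.8 kb (100 genes), -4.12 at 0.8 to 1.5 kb (176), -1.58 at 1.5 to 2.5 kb (246), -0.16 at 2.5 to 4 kb (162), 0.08 at 4 to 6 kb (80) and 0.80 above 6 kb (40). On library totals the same medians were -3.16, -1.38, 1.16, 2.57, 2.82 and 3.54, so that the class of 1.5 to 2.5 kb changes sign with the scale. The step from the shortest class to 4 to 6 kb was 5.98 here. Under 0.8 kb 99 of 100 genes were called lower on each scale and none higher. At 0.8 to 1.5 kb 174 of 176 were called lower by TMM and none higher, against 90 lower and 2 higher on library totals. Up to 4 kb the ratios were lower where genes were more abundant. Genes with 0 PacBio counts stand at the floor, so that a low ONT level limits how low their ratio can be. Under 0.8 kb the median by TMM was -4.63 at an Illumina level of 30 to 100 TPM (48 genes), -6.07 at 100 to 300 TPM (31 genes) and -8.32 above 300 TPM (21 genes). At the same levels the medians were -3.92, -4.35 and -5.60 at 0.8 to 1.5 kb (128, 37 and 11 genes). They were -1.46, -1.95 and -2.94 at 1.5 to 2.5 kb (195, 47 and 4 genes). At 2.5 to 4 kb they were -0.05, -0.91 and -1.42 (127, 31 and 4 genes). Above 4 kb they did not fall in this way, with 1 to 3 genes per class over 100 TPM. In the genes of at least 2.5 kb the ratio also moved with base composition. The median by TMM was -0.47 under 45% GC (111 genes, 22 called higher and 50 lower by TMM), -0.05 at 45 to 55% (85 genes, 32 and 29) and 0.85 above 55% (86 genes, 43 and 20). On library totals these medians were 2.27, 2.69 and 3.59. Genes of 1.5 to 2.5 kb had the same order, with TMM medians of -1.92, -1.54 and -1.10. Below 1.5 kb there was no such order, with TMM medians of -6.02, -6.53 and -5.39 under 0.8 kb and -3.82, -4.82 and -3.94 at 0.8 to 1.5 kb. Of the genes of at least 2.5 kb, the 52 whose canonical transcript holds a run of 12 A had a median of -0.94 by TMM and a median GC content of 45.6%, against 0.12 and 49.1% in the 230 without one. Under 45% GC the median was -1.12 with a run (25 genes) and -0.18 without (86), at 45 to 55% it was -0.96 (20) and 0.59 (65), and above 55% it was 1.00 (7) and 0.81 (79). The lower median with a run was thus seen below 55% GC and not in the 7 genes above it. Length, GC content and A runs vary together across genes, and no test of their separate parts was made.

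**Figure D3:**
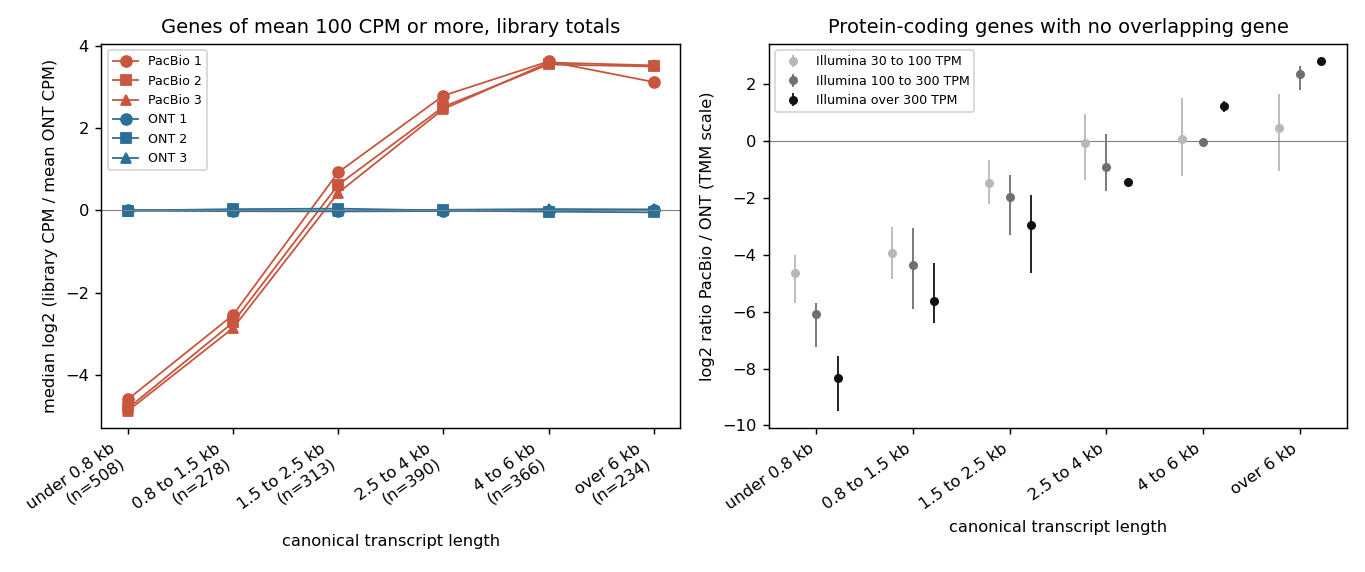
Left, median log2 of each library's CPM over the mean ONT CPM (library totals, 0.5 counts added) by canonical transcript length, 1 line per library. The 3 PacBio lines run from between -4.88 and -4.60 under 0.8 kb to between 3.55 and 3.62 at 4 to 6 kb while the ONT lines stay near 0. Right, log2 ratio of PacBio over ONT (TMM) in protein-coding genes with no overlapping gene, as median and quartiles by Illumina level, where points above 2.5 kb at over 300 TPM and above 4 kb at over 100 TPM rest on 1 to 4 genes.

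Within the 804 genes the Spearman correlation of ONT with PacBio CPM was -0.24, and in the 282 of at least 2.5 kb it was 0.07. ONT CPM against Illumina TPM gave 0.64 and 0.48, and PacBio CPM against Illumina TPM 0.11 and 0.45. These correlations run across genes of averaged libraries from the same RNA samples, and the 3 measures treat transcript length differently, so they are descriptions. The spread over genes differed as well. The 100 most counted genes of a library took 24.6%, 24.3% and 24.6% in ONT and 9.70%, 9.62% and 10.2% in PacBio. At an equal depth of 41253 counts, PacBio detected 10109, 10546 and 10375 genes and ONT 7203, 7248 and 7290. Equal counts need not mean equal numbers of reads, as PacBio reads may have been merged into consensus sequences beforehand. The effect of such merging on the share of the most counted genes and on genes detected was not tested.

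Cytoskeletal and matrix genes with long mRNAs were among the most counted in PacBio. FLNA, filamin A, an actin cross-linker with a transcript of 8.51 kb, stood at 7587, 14847 and 16135 CPM in PacBio and at 114, 108 and 128 CPM in ONT. The platforms did not overlap, and PacBio replicate 1 was the lowest of its group. FLNA was 98.9-fold higher in PacBio by CPM, a log2 ratio of 3.94 ± 0.07 (SE) by TMM and 6.68 on library totals. FLNA (chrX:154348524-154374634) overlaps ENSG00000285018 on the opposite strand. FN1, fibronectin (8.39 kb, chr2:215360440-215436073, no overlapping gene), had 2230, 2864 and 3378 CPM in PacBio and 62.3, 53.2 and 63.2 in ONT. Its log2 ratio was 2.81 ± 0.10 by TMM and 5.55 on library totals, and its Illumina mean was 375 TPM. MYH9, the heavy chain of non-muscle myosin IIA (7.45 kb), had 3054, 2393 and 2822 CPM in PacBio and 82.0, 70.1 and 81.3 in ONT, a log2 ratio of 2.40 ± 0.10 by TMM and 5.15 on library totals. DYNC1H1, the dynein heavy chain and at 19.9 kb the longest of these, had 1430, 1715 and 1550 CPM against 39.3, 38.7 and 40.0. All 4 genes were higher in PacBio on both scales.

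Under the rule of the largest ratio among protein-coding genes, the other leading genes were APOM, MATCAP2, SYMPK, AGRN, USP19, HELZ2, FASN, SLC38A10 and NUP188. FASN, fatty acid synthase (8.46 kb, chr17:82078338-82098294, no overlapping gene), had 630, 791 and 795 CPM in PacBio and 9.40, 8.48 and 9.16 in ONT, 79.0-fold higher, with a log2 ratio of 3.62 ± 0.20 by TMM and 6.36 on library totals. AGRN, agrin of basement membranes, had 1164, 697 and 636 CPM against 8.58, 8.15 and 8.56. USP19, a deubiquitinase, and HELZ2, a helicase, overlap no gene and had ratios of 3.87 ± 0.32 and 3.85 ± 0.28 by TMM (6.60 and 6.59 on library totals). APOM had the largest log2 ratio, 5.27 ± 0.29 by TMM and 8.004 on library totals, from 16, 28 and 26 PacBio counts. This short gene of 0.761 kb overlaps BAG6 on the opposite strand, so its PacBio counts cannot be told apart from those of BAG6. MATCAP2 likewise overlaps ANLN. When the same rule was applied to protein-coding genes with no overlapping gene, after these values had been seen, INTS1, FBLN2, GTF3C1, UNC13D, CPD, UBE3B and BRAT1 joined USP19, HELZ2 and FASN. Their log2 ratios ran from 2.82 for BRAT1 to 3.25 for INTS1 by TMM and from 5.56 to 5.99 on library totals. INTS1, the largest subunit of the Integrator complex, had 558, 584 and 556 CPM in PacBio against 9.11, 8.59 and 9.07 in ONT, without overlap.

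Some genes nested in a longer gene had nearly the PacBio counts of that gene. MIR4260, a microRNA gene inside LAMB3, had 97, 94 and 71 PacBio counts where LAMB3 had 98, 94 and 71. In ONT it had 11.4, 14.0 and 11.1 CPM where LAMB3 had 68.7, 62.1 and 72.4. ENSG00000269148, opposite to SYMPK, had 9, 12 and 8 PacBio counts and SYMPK 10, 12 and 8, while ONT gave 0.238, 0.393 and 0.206 CPM and 1.83, 2.37 and 2.14 CPM. ENSG00000276101 and SLC38A10 had the same 9, 12 and 14 PacBio counts, and 0.271, 0.479 and 0.376 against 2.67, 3.41 and 3.996 CPM in ONT. MIR6852 inside TLN1 had the largest ratio of all non-coding genes named, 8.14 ± 0.39 by TMM and 10.87 on library totals, from 15, 20 and 27 PacBio counts. In the MIR4260, ENSG00000269148 and ENSG00000276101 pairs the nested gene had at least 9 PacBio counts for every 10 of its host, and fewer in ONT. No source used here states whether a read over both was counted for both, and these counts give no level of a microRNA.

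At the other end stood short and abundant genes. S100A6, a calcium-binding protein of 0.434 kb, had 1, 0 and 1 PacBio counts and 7369, 6633 and 7730 CPM in ONT. The ratio of ONT over PacBio was 424, with an exact 95% Clopper-Pearson interval of 145 to 4330 for counting error. Its antisense neighbour ENSG00000238279 had the same 1, 0 and 1 PacBio counts and 7359, 6626 and 7722 CPM in ONT, so the strands cannot be told apart. TMSB10, thymosin beta-10, had 2, 0 and 1 PacBio counts and 4832, 5034 and 4794 CPM in ONT, a ratio of 167 with an interval of 80.6 to 1142. TRABD2A, which overlaps it, had 2, 1 and 2 counts and 4843, 5044 and 4805 CPM. RPLP1, an acidic ribosomal protein with no overlapping gene, had 1, 0 and 1 counts and 3062, 3090 and 3034 CPM, a ratio of 179 with an interval of 61.3 to 1829. RPS28 had 0 PacBio counts and 2494, 2462 and 2490 CPM, at least 120-fold lower. MT2A, a metallothionein, had 1, 2 and 1 PacBio counts and 3033, 2963 and 2988 CPM, 113-fold lower, or -9.49 ± 0.16 by TMM and -6.76 on library totals. Illumina gave 1706 TPM for S100A6, 2735 for TMSB10, 1673 for MT2A and 502 for RPLP1. For RPS28, which overlaps NDUFA7 and KANK3 on the opposite strand, it gave only 10.9 TPM. Among protein-coding genes with no overlapping gene, RPL37A, RPS15, XAGE1B, XAGE1A, RPL19, RPS21 and RPS27 completed this end. None of them had more than 3 PacBio counts, and the ONT means lay between 1325 CPM for RPS27 and 1962 for RPL37A. XAGE1A and XAGE1B, cancer-testis antigens, are near-identical copies with 1523 and 1525 CPM in ONT replicate 1, so their counts are uncertain.

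**Figure D4:**
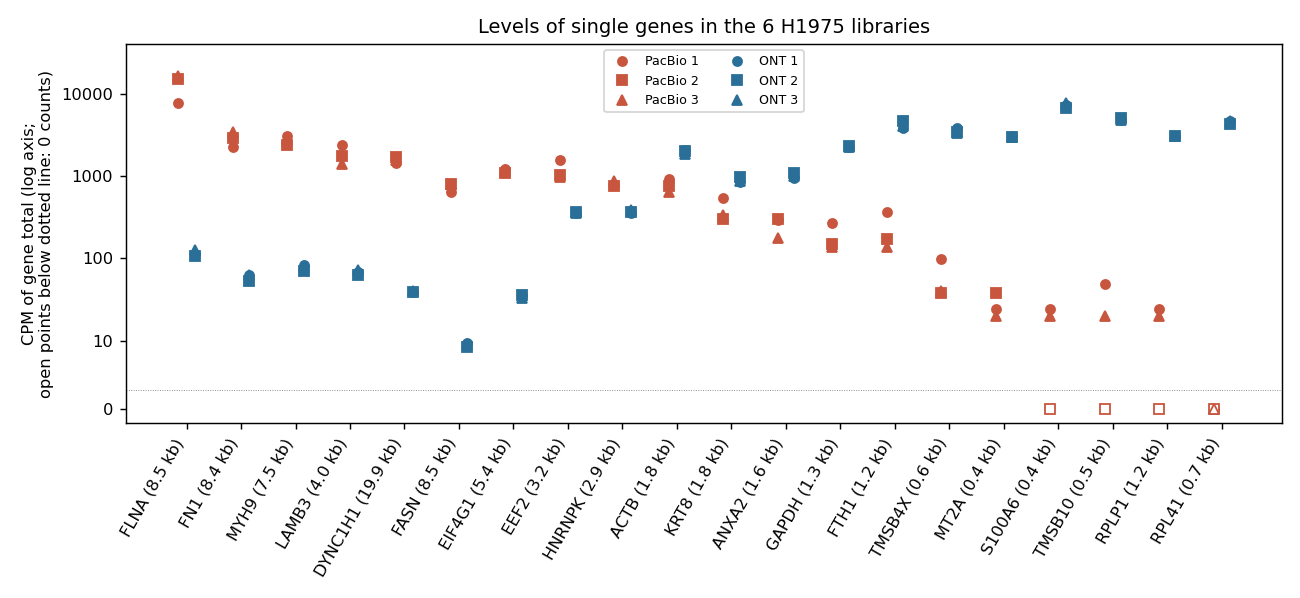
CPM of the library's gene total on a log axis for 20 genes in the 6 H1975 libraries, 1 point per library, with canonical transcript length beside each symbol. Open points under the dotted line are libraries with 0 counts. From FLNA to HNRNPK all PacBio points lie above all ONT points, and from ACTB to RPL41 all PacBio points lie below. EEF2 and HNRNPK nevertheless have log2 ratios below 0 by TMM.

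The gene lists follow this order, and for comparison the median over all tested genes with a PacBio count or an ONT level above the floor was -0.52 by TMM and 2.21 on library totals. Beside the counts per list stand the shares over all tested genes. These were 9.77% called higher and 30.0% lower by TMM, and 28.1% and 8.56% on library totals. All 79 cytosolic ribosomal protein genes were lower in PacBio on both scales, with a median of -8.32 (-5.58). Their summed CPM was 101568, 100969 and 100370 in ONT and 2400, 2732 and 2186 in PacBio, in all 354 PacBio counts, and 25 of the genes had none. RPL28, for example, had 2, 6 and 5 counts against 4422, 4420 and 4279 CPM. Of 35 translation factors, 3 were called higher and 31 lower by TMM and 13 and 14 on library totals. EEF1A1, elongation factor 1-alpha, was lower on both scales (461, 377 and 258 CPM against 1496, 1586 and 1515). EIF4G1, the 5.41 kb scaffold of cap-dependent initiation, was higher on both (1212, 1074 and 1172 CPM against 36.0, 35.5 and 33.2). EEF2, elongation factor 2, stood between: 1576, 1036 and 974 CPM against 351, 365 and 351, with a log2 ratio of -0.997 ± 0.11 by TMM and 1.75 on library totals, so its direction flips with the scale.

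Most genes of respiration were lower on both scales, and most proteasome genes by TMM. Of 79 nuclear genes of oxidative phosphorylation, 78 were called lower by TMM and 63 on library totals, with a median of -5.78 (-3.05). ATP5F1E, the small epsilon subunit of ATP synthase, had 0 PacBio counts against 852, 809 and 819 CPM in ONT, at least 39.9-fold lower, although it overlaps TUBB1. NDUFA13, of complex I, had 1, 3 and 2 counts against 570, 608 and 591 CPM. SDHA, the flavoprotein of complex II and of 2.69 kb, was the 1 member not called by TMM, at -0.57 ± 0.25 (edgeR adjusted p = 0.0627), and stood at 2.174 on library totals. Mitochondrial ribosomal proteins had a median of -3.85 (-1.12), with 76 of 77 called lower by TMM and 41 on library totals. For the proteasome, 33 of 36 were called lower by TMM and 16 on library totals (median -3.92, -1.19), with PSMA7 at 1, 2 and 0 PacBio counts against 284, 284 and 277 CPM. PSMD2, a 2.91 kb base subunit of the regulatory particle, was the 1 proteasome gene called higher by TMM (0.65 ± 0.21, edgeR adjusted p = 0.00706, 3.39 on library totals). By TMM that call was lost without PacBio replicate 2, at a ratio of 0.43 (edgeR adjusted p = 0.233). The ratio was 0.57 without ONT replicate 1 and 0.53 without PacBio replicate 1, fits in which the block leaves 1 PacBio sample. The 37 genes listed for the mitochondrial genome had 0 counts in all 6 long-read libraries, while the Illumina libraries held 2669960 such counts on average. ENSG00000230021, which overlaps nuclear copies of mitochondrial genes, had 5091, 4274 and 4832 CPM in ONT and 0 counts in PacBio. No source used here states whether mitochondrial alignments were counted.

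The S100, metallothionein, histone and small structured RNA families were scarcely counted in PacBio. S100 genes had a summed ONT CPM of 11139, 10123 and 11393 and 20 PacBio counts in all. Of 16 tested, 12 were called lower by TMM and 6 on library totals. S100A11 had 2 counts in each PacBio library against 1553, 1470 and 1549 CPM. The 10 tested metallothioneins had 4 PacBio counts, all from MT2A, against a summed 4217 to 4366 CPM in ONT, and MT1E, with 0 PacBio counts, was at least 46.8-fold lower. Of 30 other short abundant mRNAs 28 were called lower by TMM and 27 on library totals. FTH1, the ferritin heavy chain, had 364, 170 and 139 CPM against 3785, 4610 and 4064. Replication-dependent histones, whose mRNAs end in a stem-loop and mostly lack a poly(A) tail, had 23 PacBio counts over the list, and 22 of 44 tested were called lower by TMM and 7 on library totals. H4C9, at 0 PacBio counts and 78.7, 76.6 and 80.2 CPM in ONT, was at least 3.78-fold lower. No small structured RNA of the 16 tested had a PacBio count. In ONT they summed to 22.3 to 35.6 CPM. By TMM 3 of them were called lower and on library totals none, against 30.0% and 8.56% of all tested genes.

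Reference genes commonly used to compare samples did not share a direction. GAPDH (1.28 kb) had 267, 151 and 139 CPM in PacBio against 2230, 2323 and 2227 in ONT, 11.0-fold lower, with a log2 ratio of -6.38 ± 0.13 by TMM and -3.64 on library totals. ACTB had 921, 754 and 636 CPM against 2094, 2010 and 1872, 2.47-fold lower. PPIA had 121, 37.7 and 59.6 CPM against 2475, 2419 and 2390, 28.6-fold lower. YWHAZ, with a transcript of 5.01 kb, had 1333, 886 and 1153 CPM against 151, 162 and 155, which is 0.10 ± 0.12 by TMM (adjusted p = 0.568) and 2.85 on library totals. Of the 21 reference genes 1 was called higher and 15 lower by TMM, and 7 and 9 on library totals.

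Metabolic and folding genes of middling length depended on the scale. Glycolysis had 4 of 20 called higher and 13 lower by TMM, and 10 and 6 on library totals (median -2.22, 0.52). ALDOA, aldolase A, was lower on both scales (558, 358 and 298 CPM against 876, 869 and 786), while PKM, pyruvate kinase, was at -2.34 ± 0.12 by TMM and 0.40 on library totals. Among chaperones of the endoplasmic reticulum, CANX, calnexin of 4.92 kb, was higher on both scales (1188, 716 and 1093 CPM against 38.3, 38.6 and 39.1). HSPA5, the chaperone BiP, was at -1.42 ± 0.15 by TMM and 1.32 on library totals, from 727, 490 and 318 CPM against 201, 203 and 203. Of the 18, 2 were called higher and 15 lower by TMM, and 13 and 2 on library totals. HSPB1, a small cytosolic chaperone of 0.777 kb, was lower on both scales (121, 75.4 and 39.7 CPM against 769, 755 and 749), and its list had 1 higher and 18 lower of 23 by TMM and 11 and 3 on library totals. Of 23 aminoacyl-tRNA synthetases 3 were called higher and 13 lower by TMM, and 17 and 1 on library totals. IARS1, for isoleucine, had 630, 584 and 616 CPM against 25.8, 27.4 and 26.2 and was higher on both. Lysosomal genes had 4 higher and 15 lower of 27 by TMM and 16 and 3 on library totals, with PSAP, prosaposin, at 1576, 1036 and 1093 CPM against 1124, 783 and 996. Cholesterol synthesis had 6 higher and 8 lower of 24 by TMM and 15 and 1 on library totals, among them SREBF2, a transcription factor of the pathway (194, 320 and 318 CPM against 7.39, 7.22 and 7.94), which was higher on both scales.

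**Figure D5:**
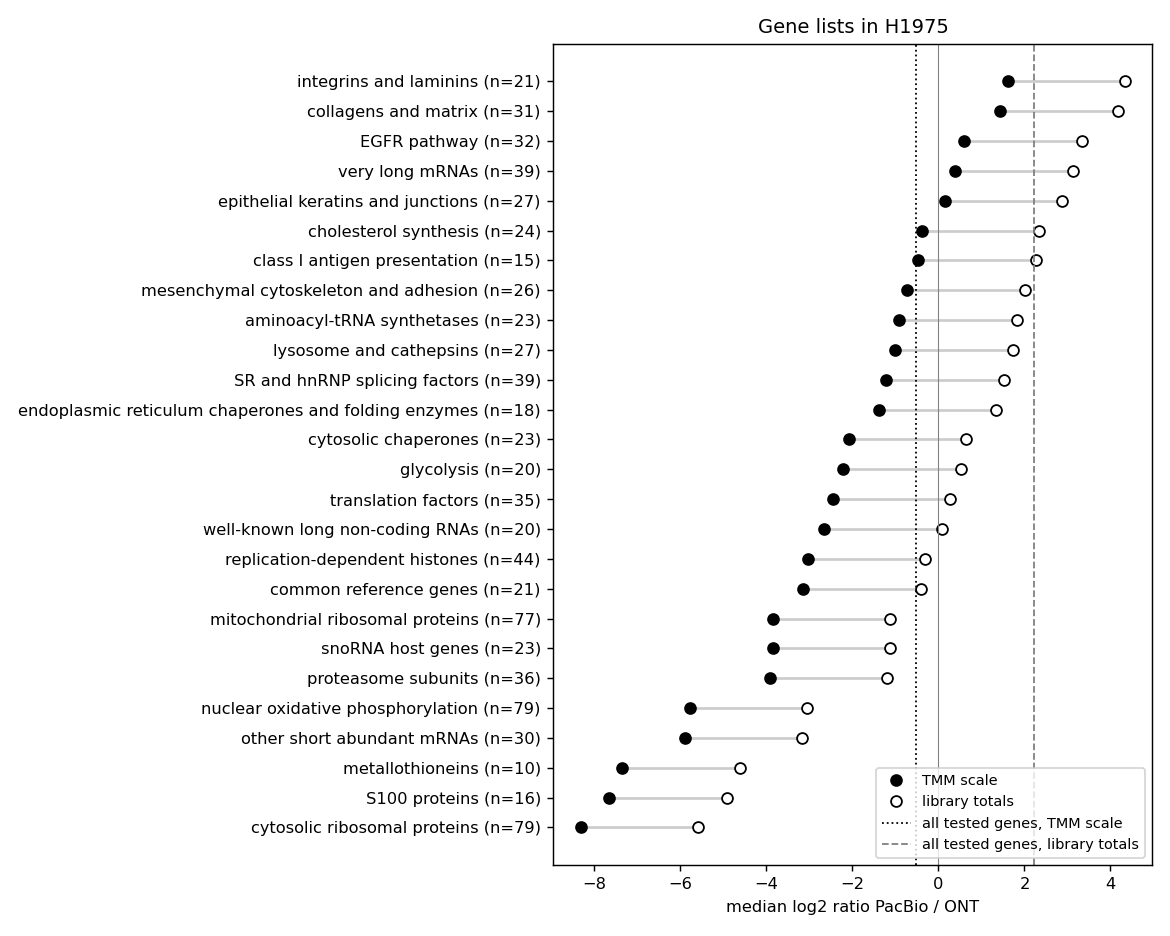
Median log2 ratio of PacBio over ONT for each gene list with at least 10 tested members, by TMM (filled) and on library totals (open), with the median of all tested genes as dotted and dashed lines. Cytosolic ribosomal proteins stand lowest at -8.32 and integrins and laminins highest at 1.61 by TMM.

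Integrins, laminins and matrix genes stood at the top. Of 21 integrin and laminin genes 12 were called higher and 5 lower by TMM (16 and 1 on library totals), with a median of 1.61 (4.34). Their share of counts was 0.863%, 0.678% and 0.670% in PacBio and 0.0492%, 0.0489% and 0.0523% in ONT. LAMB3, the laminin beta-3 chain of epithelial basement membranes, had 2376, 1771 and 1411 CPM against 68.7, 62.1 and 72.4, a log2 ratio of 2.03 ± 0.12 by TMM and 4.78 on library totals. ITGA3, an integrin that binds such laminins, had 2036, 1733 and 1451 CPM against 76.5, 86.0 and 91.4 and overlaps no gene. ITGB1, the common beta-1 chain, was not called by TMM (-0.22 ± 0.17, adjusted p = 0.328) and stood at 2.52 on library totals. Of 31 collagen and matrix genes 16 were called higher and 4 lower by TMM, and 23 and 0 on library totals. TNC, tenascin C of 8.50 kb, had 921, 1620 and 2047 CPM against 26.5, 25.4 and 30.0. TGFBI, an extracellular adhesion protein of 2.71 kb, had 1018, 565 and 695 against 311, 305 and 286, at -1.42 ± 0.12 by TMM and 1.32 on library totals. COL1A1, also among the fibroblast markers, had 703, 377 and 457 CPM against 28.1, 23.7 and 24.6 and was higher on both scales. With COL1A2 and SFRP4 it makes up all PacBio counts of the fibroblast list, and the part of those cells in these values was not tested.

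Epithelial and mesenchymal genes were found on both sides. KRT8, KRT7 and KRT19, keratins of simple epithelium with transcripts of 1.39 to 1.78 kb, were lower on both scales. KRT19, with no overlapping gene, had 242, 151 and 199 CPM against 808, 899 and 900, -4.90 ± 0.14 by TMM and -2.17 on library totals. CDH1, E-cadherin of 4.81 kb, had 582, 339 and 417 CPM against 56.7, 42.1 and 54.2, 0.37 ± 0.19 by TMM (adjusted p = 0.116) and 3.11 on library totals. Without ONT replicate 3 its TMM ratio was 0.51 (adjusted p = 0.0446). Of 27 epithelial genes 9 were called higher and 12 lower by TMM, and 17 and 4 on library totals. Of 26 mesenchymal genes 7 and 13 were called, and 14 and 4 on library totals. ANXA2, a membrane-binding annexin of 1.55 kb, was lower on both scales, with 291, 301 and 179 CPM against 943, 1076 and 1008.

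EGFR, the receptor kinase of this pathway, had 4, 11 and 13 PacBio counts, which is 96.96, 207 and 258 CPM, against 18.8, 16.7 and 18.96 CPM in ONT. PacBio replicate 1 was the lowest of its group, yet above each ONT library. The log2 ratio was 0.67 ± 0.29 by TMM (edgeR adjusted p = 0.0531) and 3.41 on library totals (adjusted p = 2.33e-18). Without ONT replicate 3 the TMM ratio was 0.72 (edgeR adjusted p = 0.0481). It was 1.00 without PacBio replicate 1 and 1.03 without ONT replicate 1. Leaving out either replicate 1 library leaves the other alone in its block. Both of these ratios thus rest on 1 PacBio sample, replicates 2 and 3 summed, and are not separate checks. EGFR (chr7:55019017-55211628, 9.90 kb) overlaps EGFR-AS1 on the opposite strand. MET, the receptor of hepatocyte growth factor (6.82 kb, no overlapping gene), had 412, 546 and 437 CPM against 18.5, 16.7 and 17.3, and was higher by 2.01 ± 0.22 by TMM and 4.75 on library totals. ERBB2, a partner receptor of EGFR, was higher by 1.05 ± 0.19 and 3.79 (606, 471 and 417 CPM against 34.8, 36.9 and 36.0). SHC1, an adaptor of these receptors, was higher by 1.53 ± 0.21 and 4.27. CCND1, cyclin D1, was not called by TMM (0.35 ± 0.19, edgeR adjusted p = 0.139) and was called higher on library totals, at 3.09. Of 32 pathway genes 7 were called higher and 8 lower by TMM, and 20 and 0 on library totals, with a median of 0.60 (3.33). Over all tested genes 9.77% were called higher and 30.0% lower by TMM, and 28.1% and 8.56% on library totals.

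Genes of antigen presentation and RNA processing also stood at both ends. B2M, the short light chain of class I molecules, had 170, 113 and 59.6 CPM against 802, 791 and 840 and was lower on both scales. ERAP1, the peptide-trimming protease of 4.84 kb, had 776, 697 and 596 against 37.6, 31.0 and 37.6 and was higher on both. Of the 15 class I genes 4 were called higher and 8 lower by TMM, and 10 and 4 on library totals. Among 39 splicing factors 4 and 28 were called by TMM and 25 and 1 on library totals. PRPF8, the 7.28 kb core of the spliceosome, was higher on both scales (606, 622 and 934 CPM against 29.3, 22.9 and 26.6). HNRNPK, of 2.89 kb, had 776, 754 and 874 CPM against 353, 363 and 386, -1.61 ± 0.12 by TMM and 1.12 on library totals.

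Long non-coding RNA genes as a class held 14.5%, 15.7% and 15.5% of PacBio counts and 11.6%, 11.7% and 11.7% of ONT counts. Of those with a mean of at least 100 CPM, 106 were called higher and 126 lower by TMM. The chosen lists of non-coding RNAs had few PacBio counts. Of 23 host genes of small nucleolar RNAs, 22 were called lower by TMM and 13 on library totals, with 58 PacBio counts in all. SNHG5 had 0 PacBio counts against 638, 614 and 658 CPM, at least 30.7-fold lower. ZFAS1 had 0, 0 and 3 counts against 556, 567 and 606 CPM, a ratio of 38.7 with an interval of 9.49 to 135. Of 20 well-known long non-coding RNAs 13 were called lower by TMM and none higher, against 5 lower and 3 higher on library totals. MALAT1, a nuclear RNA of 10.4 kb without a poly(A) tail in its mature form, had 0, 4 and 1 PacBio counts against 166, 155 and 175 CPM, -4.99 ± 0.29 by TMM and -2.26 on library totals.

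Among 39 mRNAs chosen for great length the direction was mixed. By TMM 9 were called higher and 11 lower, and 22 and 3 on library totals, with a median of 0.39 (3.12). Over all tested genes 9.77% were called higher and 30.0% lower by TMM, and 28.1% and 8.56% on library totals. The 11 called lower by TMM are thus near the share over all genes. DYNC1H1 was among those higher on both scales. NBEAL1 and HERC2, which hold ribosomal protein copies, were lower on both. The summed CPM of the list was 5381, 6444 and 6816 in PacBio and 3648, 3390 and 3553 in ONT.

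Whether the platform ratio is particular to H1975 was tested by the interaction of platform with line, using the HCC827 libraries of the same platforms. HCC827 PacBio replicates 1 and 2 had a mean chi-square per gene of 0.671, also below that of independent sampling. They were summed and counted as 1 sample, as were H1975 PacBio replicates 2 and 3. Of 27984 genes, 4 were called (0.0143%) by edgeR without a block for RNA sample, and 909 had an unadjusted p below 0.05. With the replicate block 0 were called, the lowest adjusted p was 0.0846, and 905 had an unadjusted p below 0.05. ARHGAP4, a GTPase-activating protein, had 7, 7 and 7 PacBio counts in H1975 and 2, 2 and 2 in HCC827. Its ONT level was 96.6, 100.3 and 102 CPM in H1975 and 183, 244 and 204 in HCC827, and its ratio was higher in H1975 by 3.39 ± 0.54 on the log2 scale. CBS, cystathionine beta-synthase, had 6, 5 and 5 PacBio counts against 1, 0 and 1 in HCC827, a difference of 4.44 ± 0.71. ENSG00000267827 differed by 5.63 ± 0.86 and ENSG00000257341 by -7.80 ± 1.22. All 4 had an edgeR adjusted p of 0.0255 without the block. These calls rest on few PacBio counts. Leaving out HCC827 ONT replicate 2 gave 5 genes and HCC827 PacBio replicate 1 gave 1 gene. Leaving out any other single library of the 12 gave 0 by edgeR, with 621 to 1099 genes at an unadjusted p below 0.05, and DESeq2 on all libraries called 81. A p that missed the threshold does not show that the lines have equal ratios.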

How the data were processed

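Gene counts of the 6 H1975 long-read libraries were analysed, with the 6 HCC827 long-read libraries for the interaction and the 3 H1975 Illumina libraries to describe genes. The deposited values are raw counts per gene, and per the submitters' processing notes minimap2 2.17, featureCounts and GRCh38 were used. No source used here states the annotation release, the strand setting or the treatment of multi-mapping reads. PacBio counts, per the file headers, came from clustered sequences, so a count may stand for a cluster. Files list 58797 features; 76 spike-in rows were left out and 45 second copies of X and Y shared genes, with 0 counts, were dropped. Of 58676 genes, 58207 matched GENCODE 44, which gave symbols, coordinates, overlaps, sequences and the canonical transcript.

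Tests used edgeR 4.0.16 in R 4.3.3 (TMM, genes kept by filterByExpr, robust quasi-likelihood F test, two-sided, Benjamini-Hochberg over all genes), with PacBio replicates 2 and 3 summed and a block for RNA sample, in which replicates 2 and 3 form 1 block. The interaction was fitted without the block, with HCC827 PacBio replicates 1 and 2 summed as well. The labels state that platforms share each RNA sample. Deviations of same-numbered libraries correlated at -0.01, 0.03 and 0.12 over 2101 genes, and those of unlike numbers at -0.10 to 0.06. PacBio replicates 2 and 3 correlated most with their own number, and PacBio replicate 1 with ONT replicate 2. These values give little sign of the pairing. CPM are per 1000000 counts of a library's gene total. TPM of Illumina were computed from counts and canonical length. Genes with 0 PacBio counts were set to a floor of 3 counts over the group. Where ONT also lay at or under the floor, no fold is printed for them. Such genes were left out of the medians of lists and of all tested genes. For some genes with 1 to 3 PacBio counts an exact interval is printed. The floor and the interval cover counting error alone, as PCR duplicates are not separate molecules. The fits were checked on simulated data of these depths, where changes of small size were mostly missed and unchanged genes stood somewhat below 0 by TMM.

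Members and gene lists were chosen with earlier results of these data known, so counts per list are descriptions. Genes named with values were the 10 protein-coding genes of largest ratio in each direction (called, at least 100 CPM, libraries without overlap), 3 of other biotypes in each direction, the 5 most counted per platform, up to 3 called and 1 uncalled member of highest level per list, and EGFR; not all are printed. Alternatives included RLE scaling, library totals, other filters, DESeq2 1.42.0, limma 3.58.1 (voom), thinned ONT libraries and each library left out.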

Additional observations from a re-analysis of the deposited data

Results flagged for a closer look

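Spike-in RNAs were left out of every comparison, yet both platforms counted them. PacBio replicates 1, 2 and 3 had 18, 30 and 31 spike-in counts, which is 0.0436%, 0.0565% and 0.0616% of the gene total and spike-ins together. The ONT libraries had 743375, 602109 and 497453, or 0.798%, 0.734% and 0.600%. The share was lower in each PacBio library than in each ONT library, and the lengths of the spike-in RNAs were not used here.

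The interaction of platform with line was called for 4 genes by edgeR without a replicate block, and for 0 with it, where the lowest adjusted p was 0.0846. The H1975 ratio minus the HCC827 ratio was 3.39 for ARHGAP4, 4.44 for CBS, -7.80 for ENSG00000257341 and 5.63 for ENSG00000267827 on the log2 scale. Of these, CBS alone overlaps no annotated gene. ENSG00000257341 overlaps CRIP1 and had 0, 1 and 0 PacBio counts in H1975 and 0, 3 and 2 in HCC827, against ONT levels of 373, 374 and 376 CPM in H1975 and 4.37, 7.71 and 5.99 CPM in HCC827. ENSG00000267827 overlaps PPP2R1A and had 6, 10 and 14 PacBio counts in H1975 and 1, 0 and 0 in HCC827.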

How the results depend on the processing

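With the block for RNA sample 2623 genes were called higher and 8052 lower. With no replicate block the counts were 2511 and 7724, and with the 6 libraries apart 2407 and 7397 with a replicate block and 2569 and 7915 without, and no named gene changed its call between these pairings. RLE scaling and DESeq2 kept both counts within 1.5 times. Counts of genes called higher and lower moved to 7530 and 2297 on library totals, 619 and 757 with ONT thinned to PacBio depth, 1559 and 2309 with a filter of 50 CPM, and 449 and 1866 among genes with no overlapping gene. The count called higher moved to 9169 by limma-voom and to 1519 with no filter. Leaving out 1 library other than a replicate 1 gave 1807 to 2373 and 6917 to 7533. Without either replicate 1 library the block leaves 1 PacBio sample, so no count is given. The step of the median log2 ratio from under 0.8 kb to 4 to 6 kb, 7.81, moved to 6.01 by total exon length, 5.99 with at least 50 CPM, 8.48 with at least 200 CPM, 5.98 in protein-coding genes with no overlapping gene, and 7.13 to 7.81 with 1 library left out. The cause of these moves was not tested. The differences in the 6 shares recomputed and in genes detected at equal depth moved by less than 1 SD under each alternative run. On library totals the log2 ratio turned for EEF2 (1.75), SDHA (2.174), MRPL49 (0.25), PKM (0.40), HSPA5 (1.32), PDIA4 (1.47), PSAP (0.35), CTSD (0.45), ITGB1 (2.52), TGFBI (1.32) and HNRNPK (1.12). Of these, MRPL49 and CTSD were not called on library totals (edgeR adjusted p = 0.639 and 0.0616), and SDHA and ITGB1 were not called by TMM. With ONT thinned the log2 ratio turned for EEF2 (1.21), PKM (0.097), HSPA5 (0.87), PDIA4 (1.14), CTSD (0.31), ITGB1 (2.171), TGFBI (1.14) and HNRNPK (0.78). There PKM and CTSD were not called (edgeR adjusted p = 0.707 and 0.323). The interaction count of 4 moved to 81 by DESeq2, 7 with a filter of 50 CPM, 0 with the replicate block (edgeR, 905 genes at an unadjusted p below 0.05) and 0 to 5 with 1 library left out.

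PacBio depth limits these results. Of the genes detected in PacBio, 4750 had 10 or more counts over the 3 libraries, and 8576 were counted in all 3. A single PacBio count is 6.91 CPM over the group, so no fold is given for genes with 0 PacBio counts and an ONT mean below 20.7 CPM. Of 12447 such genes 2686 were called lower by TMM and 82 on library totals. With 2 PacBio samples the permutation test cannot go below p = 0.1.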
